A study of Homo sapiens with 6 samples.

Results

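The glutathione peroxidases described here are GPX1, GPX2, GPX3, GPX4, GPX7 and GPX8, measured in the human osteosarcoma cell lines KHOS and U-2OS. Members were the probe sets that the annotation of the array gives 1 of these 6 gene symbols, which were 9 of 54675 probe sets and 6 of 19775 genes. The study put a vector for the microRNA miR-1 into both lines to see which transcripts respond, and there are 6 Affymetrix U133 Plus 2.0 arrays in all. Each line gave a sample labelled control, one transfected with the empty pEP-miR-null plasmid and one transfected with the pEP-miR-1 plasmid. KHOS derives from an osteosarcoma culture transformed by Kirsten murine sarcoma virus, and U-2OS from another tumour. Plasmids were delivered with Lipofectamine LTX for 48 hours; the labels do not say whether control cells saw the reagent. RNA of 3 flasks was pooled for each array, so every line and condition has 1 value and no replicate. Below, the 3 values of a line always stand in the order control, miR-null, miR-1. The family was picked with 1 result of these data known, a higher GPX3 value with miR-1 than with miR-null in both lines. That contrast is therefore given as a description for all members, and tests were made on the differences between the lines and between vector and control arrays.

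Glutathione peroxidases reduce hydrogen peroxide and organic hydroperoxides with electrons from glutathione, which glutathione reductase then regenerates. GPX1 is the abundant cytosolic and mitochondrial enzyme, GPX2 the enzyme of the gut epithelium, GPX3 the secreted enzyme of blood plasma, and GPX4 the enzyme that reduces lipid hydroperoxides inside membranes and so restrains ferroptosis. These 4 carry selenocysteine in the active site, an amino acid inserted at a UGA codon with the help of a stem-loop in the 3′ untranslated region of the transcript. GPX7 and GPX8 have cysteine in its place, reside in the endoplasmic reticulum and pass oxidising power on to protein disulfide isomerases. MiR-1 is a microRNA of heart and skeletal muscle that pairs through its seed with sites in target transcripts.

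The mature miR-1 sequence is shown because it is the agent of the treatment. RefSeq (GRCh38.p14) places identical copies on chromosome 20 (62554351 to 62554372, plus strand) and chromosome 18 (21829015 to 21829036, minus strand). The seed, bases 2 to 8, is in capitals.
hsa-miR-1-3p: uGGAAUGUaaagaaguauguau
No target site of this seed was searched for in the members, whose untranslated regions were not used here, and the level of miR-1 itself was not analysed here.

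The members are scattered over 5 chromosomes. RefSeq (GRCh38.p14) places GPX1 on chromosome 3 from 49357176 to 49358353, GPX2 on chromosome 14 from 64939158 to 64942745, GPX3 on chromosome 5 from 151020591 to 151028988, GPX4 on chromosome 19 from 1103994 to 1106779, GPX7 on chromosome 1 from 52602371 to 52609051 and GPX8 on chromosome 5 from 55160171 to 55167297. All 6 members matched a RefSeq promoter, the window of 250 bases before to 50 bases after a start site, and those of 3 genes are shown: GPX3 for its order over the treatments, GPX7 for the largest difference between the lines, and GPX2 because its window holds a match to the antioxidant response element. Both strands were searched for the antioxidant response element core TGACNNNGC (in 13.3% of 35116 promoter windows of this length), the GC box GGGCGG (45%), the CCAAT box CCAAT (34.6%) and the C/EBP-ATF response element TGATGNAAN (3.61%). Matches are in capitals, and the sequences run 5′ to 3′ on the strand of the gene, GRCh38.p14.
GPX3 (chr5:151020341-151020640, plus strand): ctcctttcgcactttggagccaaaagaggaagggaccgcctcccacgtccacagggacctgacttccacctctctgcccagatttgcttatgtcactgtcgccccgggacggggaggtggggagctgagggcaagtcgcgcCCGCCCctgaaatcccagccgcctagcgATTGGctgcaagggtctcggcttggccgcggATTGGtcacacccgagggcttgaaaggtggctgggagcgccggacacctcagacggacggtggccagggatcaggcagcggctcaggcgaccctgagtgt
GPX7 (chr1:52602121-52602420, plus strand): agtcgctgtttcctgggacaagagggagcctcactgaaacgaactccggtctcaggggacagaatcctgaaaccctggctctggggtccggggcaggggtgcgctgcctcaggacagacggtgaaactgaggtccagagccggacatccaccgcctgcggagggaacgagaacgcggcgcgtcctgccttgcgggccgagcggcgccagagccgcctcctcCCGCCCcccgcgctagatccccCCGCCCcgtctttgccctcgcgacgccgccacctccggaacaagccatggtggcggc
GPX2 (chr14:64942696-64942995, minus strand): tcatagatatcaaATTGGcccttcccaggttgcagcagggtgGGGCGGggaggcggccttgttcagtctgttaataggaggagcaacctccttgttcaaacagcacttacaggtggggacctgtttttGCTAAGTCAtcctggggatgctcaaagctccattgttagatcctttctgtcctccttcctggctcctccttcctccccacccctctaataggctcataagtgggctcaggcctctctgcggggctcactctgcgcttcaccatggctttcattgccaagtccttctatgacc
The GPX3 window held 1 GC box and 2 CCAAT boxes on the opposite strand, with their first bases at positions -81 and -50 from the start site. The GPX7 window held 2 GC boxes. The GPX2 window held 1 match to the antioxidant response element core, TGACTTAGC on the opposite strand, beside 1 GC box and 1 CCAAT box. Among the other members, GPX8 held 1 C/EBP-ATF match, TGATGTAAT, and the antioxidant core had 0 matches in the windows of GPX1, GPX3, GPX4, GPX7 and GPX8. A match of letters is no evidence of a bound factor.

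The arrays differed in ways that bear on all values. Array medians lay between 4.98 and 5.15 (log2), and interquartile ranges between 2.75 and 3.36, the narrowest in the U-2OS vector arrays. Across probe sets, Pearson r was 0.978 or higher within a line and 0.938 or lower between lines. The osteoblast and mesenchymal markers SPARC, COL1A1, SPP1 and VIM were above 5.11, the median of all probe sets, on all 6 arrays, while SP7, ALPL, COL1A2 and IBSP were below it on all 6. RUNX2, the osteoblast master factor, read 8.98 to 9.85 in KHOS but 6.74, 4.72 and 4.23 in U-2OS. Of markers of other cell types, 3 of 5 epithelial, 2 of 4 blood and 2 of 5 endothelial genes were below that median on all arrays, CDH1, PTPRC and CDH5 among them. Above it on all arrays were HBB (7.07 to 7.40), PECAM1 (5.69 to 6.54), TEK (5.51 to 6.39) and the epithelial marker EPCAM, which read 8.43 to 8.70 in KHOS against 5.49 to 5.96 in U-2OS, and the 5 epithelial markers averaged 5.21 to 5.27 and 4.73 to 4.84. In bulk RNA of this kind, fewer cells with a transcript and less transcript per cell cannot be told apart.

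GPX3 had the same order of arrays in both lines, and no other tested member had control lowest and miR-1 highest in both. GPX7 had the reverse order in both lines, with steps as small as -0.0021 in KHOS and -0.0015 in U-2OS. The GPX3 probe set 201348_at read 6.11, 6.35 and 7.17 in KHOS (log2, as are all levels below). The U-2OS readings were 6.54, 6.83 and 7.53. The U-2OS value was above the KHOS value in each condition. The difference between miR-1 and miR-null was 0.82 in KHOS, or 1.77-fold, and 0.70 in U-2OS, or 1.63-fold. With GPX3 read from this probe set, 0 of the 12958 genes tested had a larger rise in whichever line it rose less. These are the values by which GPX3 was chosen, and they carry no test.

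A second GPX3 probe set, 214091_s_at, had the same order with smaller steps. It read 6.38, 6.49 and 6.88 in KHOS against 6.45, 6.77 and 6.96 in U-2OS. Its difference between miR-1 and miR-null was 0.39 in KHOS and 0.20 in U-2OS, where the step from control to miR-null was the larger one. Both probe sets hybridized to the same 6 RNA pools, so the second is no independent replicate. The difference between miR-null and control was 0.24 in KHOS and 0.29 in U-2OS for 201348_at, and 0.10 and 0.32 for 214091_s_at. From control to miR-1, 201348_at was 2.09-fold higher in KHOS and 1.98-fold in U-2OS, a difference that contains the one by which the gene was chosen.

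Some array controls had the same order as GPX3. The control probe set for the large ribosomal RNA read 13.68, 14.07 and 14.49 in KHOS against 13.79, 14.58 and 14.86 in U-2OS, the same order as GPX3 within each line. The hybridization spike-ins averaged 10.81, 11.33 and 11.65 in U-2OS, again in the order of GPX3, but 9.76, 10.13 and 9.93 in KHOS, with miR-null highest. Actin control signal at the 3′ end exceeded that at the 5′ end by a log2 difference that lay between 2.40 and 2.90 over the arrays, highest on the miR-1 array in KHOS and on the miR-null array in U-2OS. Their part in the GPX3 values was not tested.

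**Figure D1:**
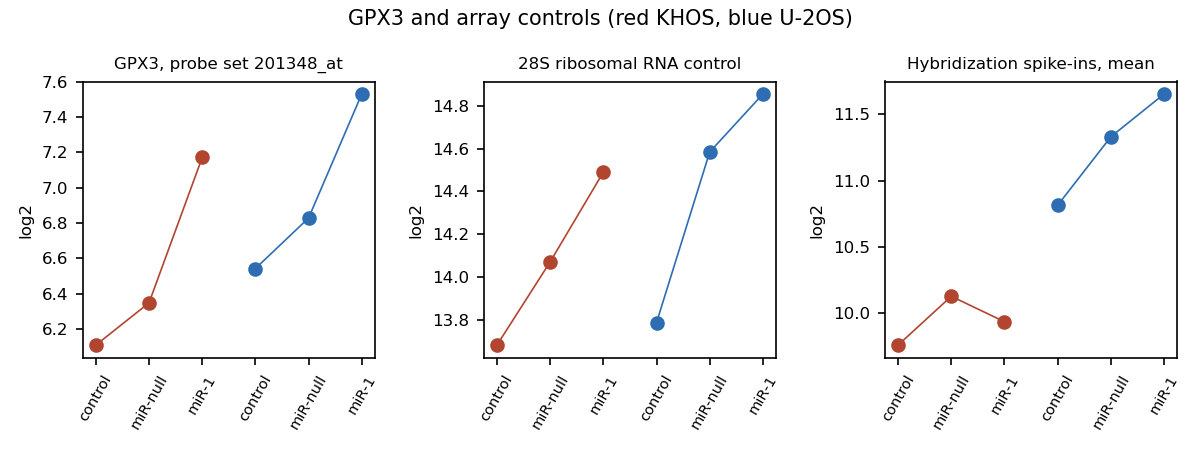
GPX3 probe set 201348_at, the large ribosomal RNA control and the mean of the hybridization spike-ins (log2, vertical axes) on the 6 arrays, with lines joining the arrays of 1 cell line. GPX3 and the ribosomal control are lowest on the control and highest on the miR-1 array in both lines, whereas the KHOS spike-ins peak on the miR-null array at 10.13.

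The cytosolic enzyme GPX1 read lower than the control of its line on all 4 vector arrays. It read 12.08, 11.88 and 11.87 in KHOS against 11.89, 11.33 and 11.48 in U-2OS. Control was highest in both lines. The miR-1 and miR-null arrays of KHOS were nearly the same, at -0.0076 apart, and in U-2OS miR-1 was higher by 0.15.

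GPX2, the enzyme of the gut epithelium, was near the floor of the array. Probe set 202831_at read 4.59, 4.59 and 4.56 in KHOS against 4.96, 5.09 and 5.07 in U-2OS. Probe set 239595_at lay between 3.61 and 3.77 in KHOS and between 3.91 and 4.03 in U-2OS. All 12 of these values were below 5.11, so GPX2 was not among the genes tested. A difference between readings this low is not read as a difference in GPX2 transcript.

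GPX4, which reduces lipid hydroperoxides, spanned less than the other tested members. It read 11.79, 11.57 and 11.35 in KHOS against 11.64, 11.37 and 11.41 in U-2OS. Control was highest in both lines. The difference between miR-1 and miR-null was -0.21 in KHOS and 0.04 in U-2OS.

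GPX7, a peroxidase of the endoplasmic reticulum, separated the lines. It read 8.05, 8.05 and 7.67 in KHOS. The U-2OS control read 5.82, and the miR-null and miR-1 arrays of that line 4.78 each. Every KHOS value was above every U-2OS value, and both U-2OS vector arrays were below the median of all probe sets, among readings where transcript and background cannot be told apart. On the control arrays, where both lines read above that median, KHOS was 4.69-fold higher. No fold is given for the vector arrays. The U-2OS vector arrays were lower than their control, by -1.04 on average, the KHOS ones by -0.19. EPCAM was higher in KHOS too and RUNX2 lay below the median of all probe sets on the same U-2OS arrays as GPX7. Other markers went the other way. Of the 5 tested osteoblast and mesenchymal markers 2 were higher and 3, SPARC, COL1A1 and SPP1, lower in KHOS (limma). On the U-2OS vector arrays SPP1 was above its control, whereas SPARC, COL1A1 and VIM were below theirs. The part of these markers in the GPX7 values was not tested.

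GPX8, the membrane-bound peroxidase of the same compartment, gave different readings from its 2 probe sets. Probe set 227628_at, the brighter and the one tested, read 10.51, 10.65 and 10.32 in KHOS against 11.02, 10.79 and 10.91 in U-2OS. Probe set 228141_at read 8.35, 8.36 and 7.91 in KHOS against 9.79, 8.69 and 8.53 in U-2OS. In the second probe set the U-2OS vector arrays were -1.18 from their control on average, whereas in the first they were -0.17 from it. Which transcripts each probe set reads was not analysed here. Both probe sets were higher in U-2OS in each of the 3 conditions.

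**Figure D2:**
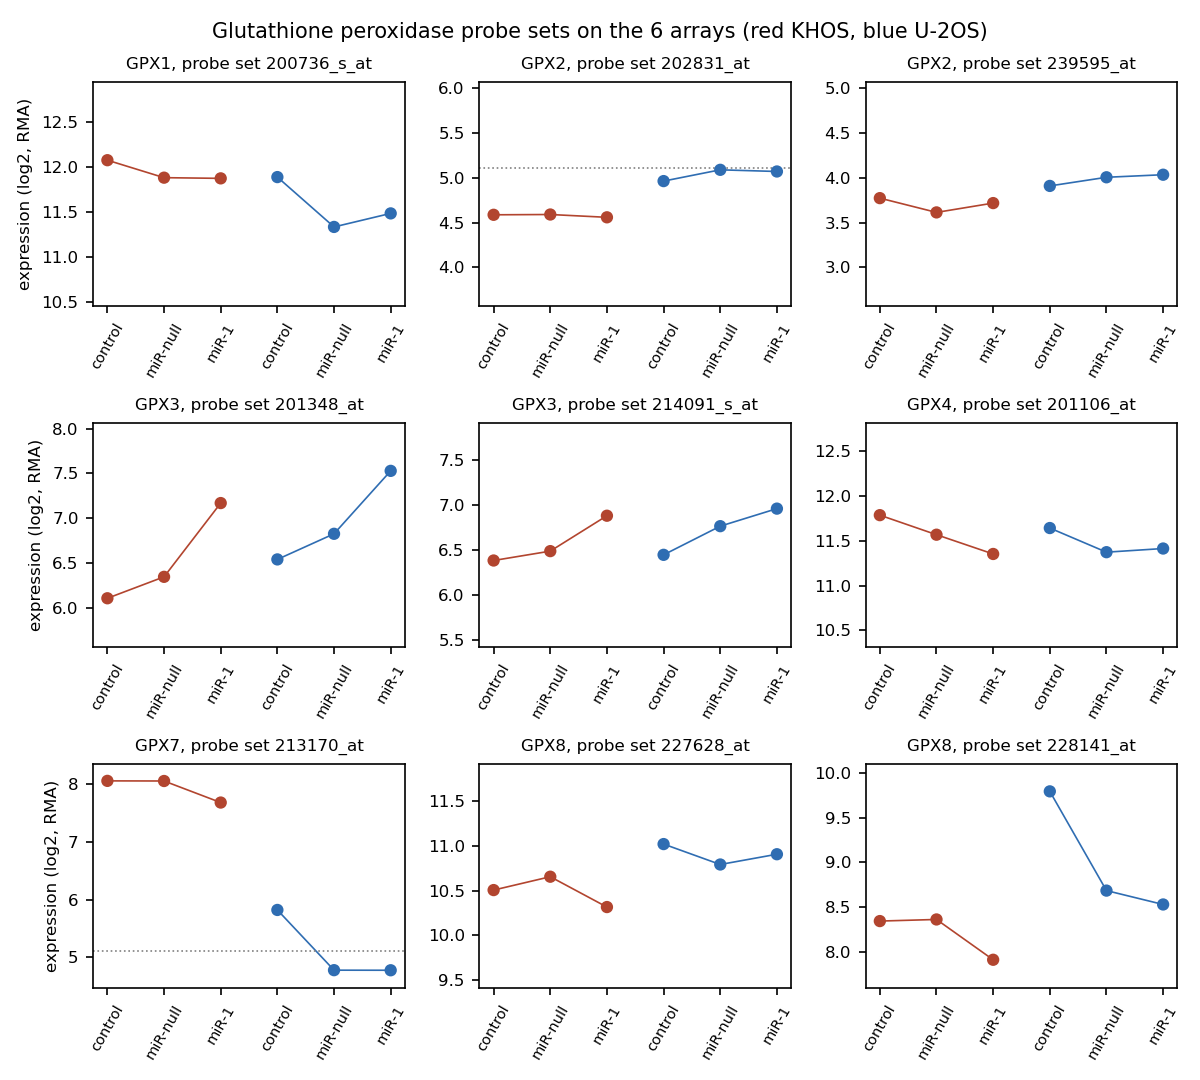
Expression (log2, RMA) of the 9 probe sets of the 6 members on the 6 arrays, KHOS in red and U-2OS in blue, each panel with its own vertical range and the dotted line at 5.11, the median of all probe sets, where it falls within the panel. GPX3 climbs from control to miR-1 in both lines, GPX7 lies at 7.67 to 8.05 in KHOS and 4.78 to 5.82 in U-2OS, and GPX2 stays below 5.11 on every array.

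With miR-1 against miR-null, GPX3 alone among the 5 tested members was at least 1.2-fold higher in both lines, a fold that 0.903% of tested genes reached, and 0 members were at least 1.2-fold lower in both (2.2% of tested genes). In KHOS alone 7.39% of tested genes were at least 1.2-fold higher and 11.8% lower, and in U-2OS alone 11.8% higher and 19.2% lower. The fold is the one that the design text of the study uses. The GPX7 difference was -0.37 for KHOS and -0.0015 for U-2OS, and the GPX8 difference -0.34 and 0.11. Since the family was picked on this contrast, nothing is read from these counts.

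**Figure D3:**
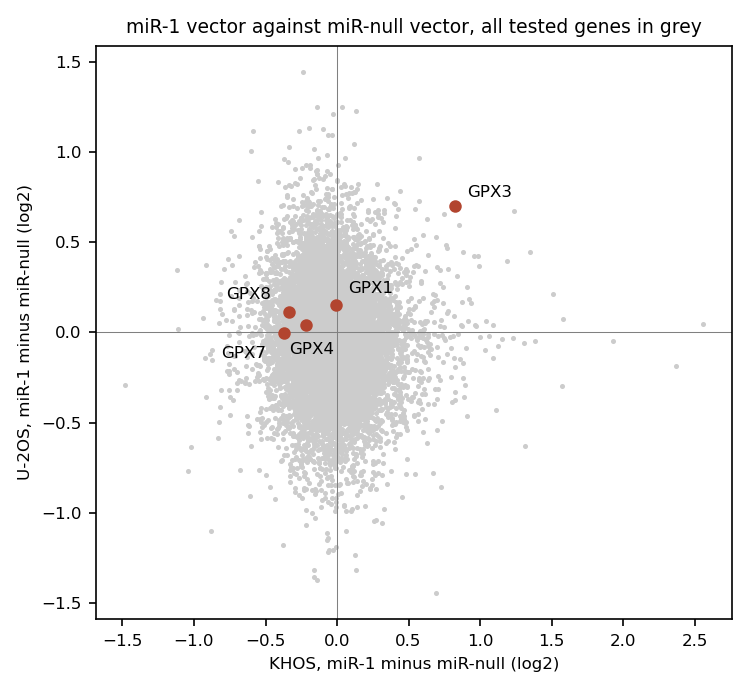
Difference between the miR-1 and miR-null arrays (log2) in KHOS on the horizontal and U-2OS on the vertical axis for the 12958 tested genes in grey, with the 5 tested members in red. GPX3, read from probe set 201348_at, lies at 0.82 and 0.70, while the other members lie within 0.4 of 0 on both axes.

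Between the lines, GPX7 was higher in KHOS and GPX3 higher in U-2OS. The fitted log2 difference of GPX7 was 2.80 ± 0.22 (SE, 3 arrays a line), with an adjusted p of 1.69e-04 in limma. Since 2 of its 3 U-2OS readings were near the floor, this size describes array readings and is no exact fold of transcript. GPX3 was lower in KHOS, at -0.42 ± 0.14, or 1.34-fold (limma, adjusted p = 0.0381). GPX1 had 0.38 ± 0.15 (limma, adjusted p = 0.0687), GPX8 -0.41 ± 0.16 (adjusted p = 0.0625) and GPX4 0.09 ± 0.14 (adjusted p = 0.595). Thus 2 of 5 tested members passed, 1 higher and 1 lower in KHOS, where 54.8% of all tested genes did, 30.3% higher and 24.5% lower. The members' share is below that background, and a call between these lines does not set the family apart. The conditions were a term of this fit, and they are the only spread within a line, so p-values measure differences between pooled arrays and not between cultures.

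The GPX7 call held in every limma fit that kept the gene, with values from 2.56 to 3.08. The smallest p of an exact Mann-Whitney test of 3 against 3 arrays is 0.1, and it called 0 genes. The GPX3 call was lost for probe set 214091_s_at (-0.14, adjusted p = 0.448), with the probe sets averaged (-0.28, adjusted p = 0.0737), with a mean-dependent prior variance (adjusted p = 0.0661), with no term for condition (adjusted p = 0.300), and on leaving out the miR-null array of KHOS or of U-2OS (-0.40, adjusted p = 0.281) or the miR-1 array of KHOS or of U-2OS (-0.46, adjusted p = 0.110), all in limma. GPX1 passed without the KHOS control or the U-2OS control array (0.47 for both, limma, adjusted p = 0.0184) and with a mean-dependent prior variance (adjusted p = 0.0141). It also passed in the fit with the probe sets averaged (limma, adjusted p = 0.0430). There its own value, from a single probe set, stayed at 0.38. GPX8 passed in its probe set 228141_at (-0.80, limma, adjusted p = 0.0276), after quantile normalization (-0.63, adjusted p = 0.0153), with the probe sets averaged (-0.60, adjusted p = 0.0240), with a mean-dependent prior variance (adjusted p = 0.0266) and with no term for condition (adjusted p = 0.0435). That normalization moved the median of all genes from -0.0020 to -0.18, and the split of all calls from 3928 higher and 3175 lower in KHOS to 3084 and 4218. It also moved GPX1 from 0.38 to 0.20 (adjusted p = 0.227) and GPX3 from -0.42 to -0.66 (adjusted p = 0.0103), and turned GPX4 from 0.09 to -0.07, in limma.

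Between vector and control arrays 0 of 5 tested members passed in limma, against 0.478% of all tested genes, 0.355% higher and 0.123% lower. GPX3 had a fitted log2 difference of 0.64 ± 0.27 (SE, 4 vector and 2 control arrays; limma, adjusted p = 0.246), with 95% bounds of 0.0071 and 1.28. GPX7 had -0.61 ± 0.21 (adjusted p = 0.181), GPX1 -0.34 ± 0.14 (adjusted p = 0.224), GPX4 -0.29 ± 0.13 (adjusted p = 0.273) and GPX8 -0.10 ± 0.15 (adjusted p = 0.754). At an unadjusted p under 0.05 there were 3 of these 5, GPX1, GPX3 and GPX7, against 20.0% of all genes, and the exact Mann-Whitney test, which cannot go below 0.133 here, called 0. The 95% intervals include changes of over 1.5-fold for GPX1, GPX3, GPX4 and GPX7. As the U-2OS vector readings of GPX7 were near the floor, the size of its vector change is not exact.

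The spread behind the GPX3 value holds its difference between miR-1 and miR-null. With the 3 conditions as separate terms its value had an SE of 0.14 in place of 0.27 and an adjusted p of 0.158 in limma. Without the KHOS control array GPX7 passed at -1.04 (limma, adjusted p = 0.0142), a value that then comes from U-2OS only, and without the U-2OS control array its value was -0.19 (adjusted p = 0.704). Leaving out the U-2OS control array also moved GPX1 to -0.20 (limma, adjusted p = 0.615). The GPX3 probe set 214091_s_at had 0.36 (limma, adjusted p = 0.265) and the GPX8 probe set 228141_at -0.70 (adjusted p = 0.173). GPX8, at -0.10, lay between -0.18 and -0.02 on leaving out 1 array. GPX1, GPX4 and GPX7 were below their line's control on all 4 vector arrays, as GPX3 was above it on all 4. On the KHOS miR-null array GPX7 was only -0.0021 from the control.

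Whether the vector change differed between the lines was tested by an interaction, and 0 of 5 members passed in limma against 2.28% of all genes (2% higher and 0.286% lower in KHOS), with 1 of 5, GPX7, at an unadjusted p under 0.05. The line difference of GPX7 was 0.85 ± 0.28 (SE, limma, adjusted p = 0.131), against a median of 0.14 over all genes. The lower vector values were those of U-2OS, both near the floor, so the size of this difference is not exact. After quantile normalization the GPX7 value was 0.87 (limma, adjusted p = 0.184) and that median -0.05. For GPX3 the line difference was 0.01 ± 0.51, with bounds of -1.16 and 1.18 on either side of 0. GPX1 had 0.28 ± 0.24, GPX8 0.15 ± 0.27 and GPX4 -0.08 ± 0.25. Quantile normalization turned the sign for GPX3 (-0.33) and GPX8 (-0.02). The GPX8 probe set 228141_at, fitted with every probe set as a feature, had 0.98 ± 0.31 (limma, adjusted p = 0.137).

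**Figure D4:**
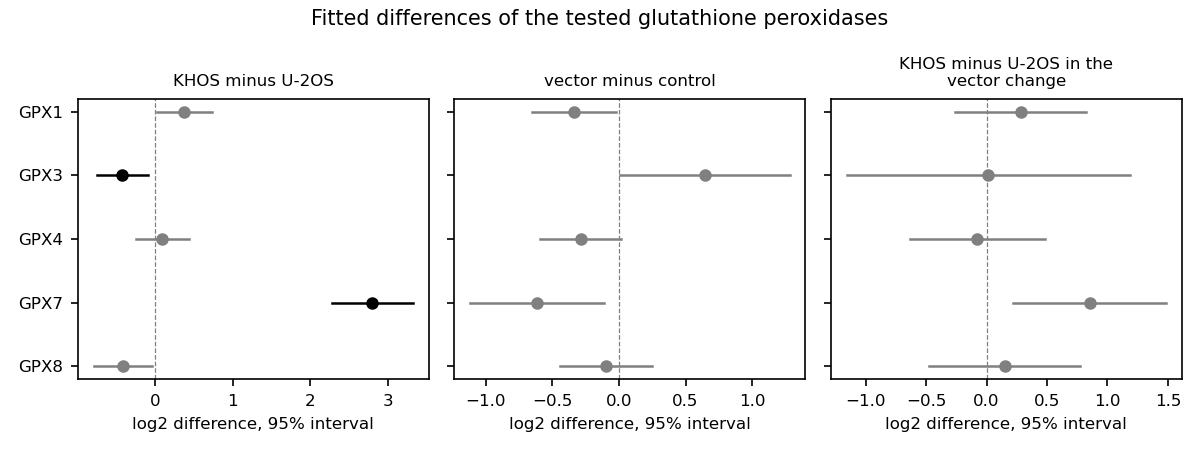
Fitted log2 differences of the 5 tested members with 95% intervals in limma, for KHOS minus U-2OS (left), vector minus control (middle) and the difference between the lines in the vector change (right), with black marking an adjusted p below 0.05. Only GPX3 and GPX7 between the lines are black, and GPX7 at 2.80 lies farthest from 0.

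The genes whose profile over the 6 arrays lay nearest to GPX3 were KDM6B, a histone H3K27 demethylase, ALOXE3, a lipoxygenase of the skin barrier, PIM3, a serine kinase, ACHE, the acetylcholinesterase, and SCAF1, a splicing-associated factor. Likeness was the root mean square distance between profiles centred on their own means, and it was 0.16, 0.19, 0.20, 0.23 and 0.23 on the log2 scale, with Pearson r of 0.949, 0.930, 0.919, 0.930 and 0.888 over 6 arrays. KDM6B read 7.35, 7.83 and 8.32 in KHOS against 7.56, 8.12 and 8.57 in U-2OS with the same order of arrays as GPX3. The nearest to GPX7 were DYNC1H1 (0.06), a dynein heavy chain, INTS8 (0.11), an Integrator subunit, and C1orf53 (0.14). The nearest to GPX1 were NT5DC3, CFDP1 and SP1 at 0.03 to 0.05, to GPX2 MTCH1, CMKLR1 and RECK at 0.02 to 0.03, to GPX4 ORMDL2, RNF34 and MAP3K6 at 0.02 to 0.04, and to GPX8 MRPL49, ZNRD2 and CASR at 0.04 to 0.06. As the GPX2 readings were near the floor, its nearest genes are not read as following GPX2 transcript. The matches to GPX7 rest in part on its U-2OS vector readings near the floor. SCAF1, near GPX3, read 4.86 and 4.83 on the KHOS control and miR-null arrays and 4.68 on the U-2OS control array, all below 5.11. A member that varies less can have smaller distances, with an SD of 0.26 for GPX2 and 0.53 for GPX3. Distances are therefore not compared between members. These matches over 6 arrays of 2 lines are a description with no test.

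Glutathione supply was read from 14 tested genes of synthesis and recycling, beside the members' own values. Between the lines 4 were higher and 1 lower in KHOS, with a median of 0.09 against -0.0020 for all genes. As over all tested genes 30.3% were higher and 24.5% lower, the counts of this and the following lists are descriptions, and nothing particular to a list is read from them. GCLM, the regulatory subunit of the enzyme that makes gamma-glutamylcysteine, was 2.22-fold higher in KHOS, SLC7A11, the cystine importer, 2.17-fold and GSS, the glutathione synthetase, 1.77-fold. CTH, the cystathionine lyase, was lower by a log2 difference of -0.57. After quantile normalization 4 were higher and 4 lower, and the list's median was -0.17 against -0.18 for all genes. With a vector 2 of the 14 rose and 0 fell, where 0.355% of all tested genes rose and 0.123% fell. CTH went from 7.07 on the KHOS control to 9.03 and 9.25 with a vector and from 7.93 to 9.66 and 9.46 in U-2OS (limma, adjusted p = 0.0138). SLC7A11 went from 10.29 to 11.75 and 11.43 in KHOS and from 9.43 to 10.42 and 10.27 in U-2OS (adjusted p = 0.0464).

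Of 16 tested glutathione transferases, which use glutathione to conjugate other molecules, 4 were higher and 6 lower in KHOS. GSTM3 was higher in KHOS, at 9.31 to 9.47 against 5.15 to 5.51 in U-2OS, and GSTO2 lower, at 4.57 to 5.32 against 8.85 to 9.38, and with one side of each near the floor no fold is given. GSTM2 was 2.34-fold and MGST1 2.33-fold higher. GSTZ1 was lower by a log2 difference of -1.57 and GSTA4 by -1.36. The GSTM genes are close copies, and their probe sets can share signal. With a vector 0 of 16 passed.

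The selenoproteins GPX1 to GPX4 depend on the machinery that makes and inserts selenocysteine. Of 11 tested genes of this machinery 6 were higher and 0 lower in KHOS, with a median of 0.53; the total called is near the background of 54.8%. PSTK, the kinase that phosphorylates the seryl-tRNA of selenocysteine, was 4.34-fold higher. SECISBP2L, a paralogue of the protein that binds the selenocysteine stem-loop, was 4.25-fold higher and SCLY, the selenocysteine lyase, 3.49-fold. After quantile normalization 4 were higher and 0 lower, with a median of 0.16. Of 15 other selenoproteins 2 were higher and 5 lower in KHOS, with a median of -0.22, and after quantile normalization 1 and 6, with a median of -0.29 against -0.18 for all genes. The lists were not tested against each other. TXNRD2, the mitochondrial thioredoxin reductase, was lower by a log2 difference of -1.85, SELENOM by -1.74 and SELENOW by -1.54, while SELENOF was 1.99-fold and SELENOT 1.35-fold higher. With a vector 0 of 11 and 0 of 15 passed, and the medians were -0.11 and 0.02.

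Peroxide is also removed by catalase and the peroxiredoxins, which share substrates with GPX1. Of 14 tested genes of this list 4 were higher and 4 lower in KHOS, and after quantile normalization 1 and 6. PRDX2 was 2.10-fold and SOD2 1.52-fold higher in KHOS, while TXNRD2, which stands in the selenoprotein list too, SOD1 (-0.86) and TXN2 (-0.65) were lower. TXNIP, an inhibitor of thioredoxin, was 2.35-fold higher in KHOS over the 3 conditions. On the control arrays TXNIP read 6.58 in KHOS against 6.66 in U-2OS. With a vector 0 of 14 passed. TXNIP was the list's 1 gene that passed for a line difference in the vector change, where 2.28% of all tested genes did. Its value was 1.97 ± 0.24 (SE, limma, adjusted p = 0.0116), against a median of 0.14 over all genes. TXNIP went from 6.58 to 8.47 and 8.65 in KHOS and from 6.66 to 6.63 and 6.70 in U-2OS. After quantile normalization 0 of the 14 passed for this difference.

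The endoplasmic reticulum list holds the partners of GPX7 and GPX8, and 4 of its 9 tested genes were higher and 2 lower in KHOS. ERO1B, an oxidase that feeds protein disulfide isomerases, was higher in KHOS, at 6.57 to 6.85 against 4.78 to 5.26 near the floor in U-2OS, the direction of GPX7, whereas its paralogue ERO1A was lower by a log2 difference of -1.14, the direction of GPX3. The disulfide isomerases PDIA3 and PDIA4 were 2.16-fold and 1.98-fold higher. QSOX1, a sulfhydryl oxidase, was lower, at 8.23 to 8.45 in KHOS against 9.07 to 9.47 in U-2OS (limma, adjusted p = 0.00181). With a vector 0 of 9 passed. With miR-1 against miR-null 3 of 9 were at least 1.2-fold lower and 0 higher in KHOS (11.8% and 7.39% of all tested genes). In U-2OS 1 of 9 was lower and 1 higher (19.2% and 11.8%). Other lists had such genes in KHOS too, with 4 lower and 1 higher of 16 glutathione transferases. Of 14 genes of glutathione synthesis and recycling 3 were lower and 1 higher there. Nothing particular to this list is read from these counts.

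Around GPX4, the list of lipid peroxidation and ferroptosis had 2 of 10 tested genes higher and 1 lower in KHOS. ACSL4, which loads polyunsaturated fatty acids into membranes, was 4.39-fold higher in KHOS, and HMOX1, the haem oxygenase, was lower by a log2 difference of -3.07. With a vector 2 of 10 rose, HMOX1 and the SLC7A11 already named, and 0 fell, where 0.355% of all tested genes rose and 0.123% fell. SLC7A11 is counted in this list and in that of glutathione synthesis and recycling. HMOX1 went from 6.55 to 8.24 and 8.32 in KHOS and from 9.14 to 11.36 and 11.83 in U-2OS (limma, adjusted p = 0.0158). GPX5, the epididymal enzyme, lay at 4.23 or lower on all arrays in both of its probe sets, and GPX6, the olfactory enzyme, was not analysed here.

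**Figure D5:**
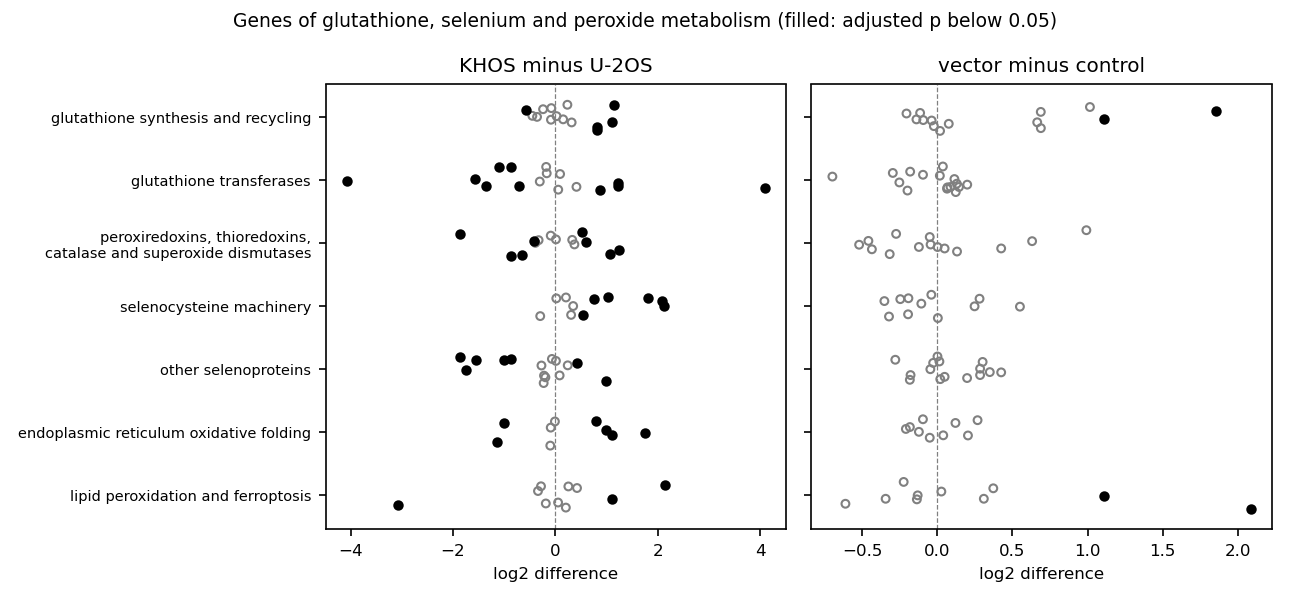
Fitted log2 differences of the tested genes of 7 lists for KHOS minus U-2OS (left) and vector minus control (right), each point 1 gene, filled where the adjusted p in limma was below 0.05, with vertical scatter for legibility only. Between the lines GSTM3 and GSTO2 lie farthest apart, and with a vector the filled points are CTH, SLC7A11 (in 2 lists) and HMOX1.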

How the data were processed

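Expression was measured on 6 arrays. The deposited log2 values are the authors' RMA output from Qlucore, as the series' design text says, and RMA appears in the submitters' processing notes as well. No genome build is stated in the labels. Values ran from 2.83 to 14.90 and were used as deposited. RMA compresses differences near the floor, and the number of arrays limits the precision.

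Of 54675 probe sets, 41091 had 1 gene symbol, 1801 several and 11721 none, and 62 were controls. Each gene was read from its probe set with the highest mean, and the 12958 genes with a mean of at least 5.11, the median of all probe sets, entered limma 3.58.1 (R 4.3.3; lmFit and eBayes) with Benjamini-Hochberg adjustment over all of them and 0.05 as threshold. Fits had 2 residual degrees of freedom for the lines (condition as a term) and for the line difference in the vector change, and 3 for vector minus control (cell line as a term). The scripts were tested on simulated data.

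Named were all members, the 5 genes nearest to GPX3 and 3 nearest to every other member, and up to 3 rises and 3 falls per list that passed. Members, lists and tests were chosen with earlier results of these data known. Alternatives were normalization, level filter, probe set rule, prior variance, model terms, the Mann-Whitney test and leaving out each array.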

Additional observations from a re-analysis of the deposited data

Results flagged for a closer look

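Some members differed in sign between the lines with miR-1 against miR-null, with 1 array on each side, and these differences between the lines were not tested. GPX1 had -0.0076 in KHOS and 0.15 in U-2OS. GPX4 had -0.21 in KHOS and 0.041 in U-2OS. GPX8 had -0.34 in KHOS and 0.11 in U-2OS.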

How the results depend on the processing

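Limits come first from the design: 1 pooled array per line and condition, so the lines or the conditions stand in for replicates. Each group has a single array, so no replicate number pairs arrays; condition was the block of the line fit and cell line that of the vector fit, and with no cell line term (no replicate block) 0 genes were called between vector and control. For KHOS minus U-2OS the 2 called members became 0 at the 75th percentile filter, which drops GPX3 and GPX7, and 0 with the exact Mann-Whitney test, and 1 to 3 on leaving out an array. The 7103 genes called became 4713 of 7890 at that filter, 12148 of 23010 with every probe set, 0 with the exact Mann-Whitney test, and 4471 to 8765 on leaving out an array. For vector minus control, the 0 members called became 0 to 1 on leaving out an array. The 62 genes called became 96 after quantile normalization, 103 with no level filter, 386 at the 75th percentile filter, 222 with every probe set, 216 with the mean of probe sets, 588 with a mean-dependent prior variance, 0 with the exact Mann-Whitney test, 3 with the 3 conditions as terms, and 0 to 1931 on leaving out an array (1931 without the KHOS control, 520 without the U-2OS control). For the line difference in the vector change, 0 members were called throughout, and the 296 genes became 16 after quantile normalization, 553 at the 75th percentile filter, 863 with a mean-dependent prior variance and 6 to 1531 on leaving out an array (1531 without the U-2OS miR-null array); without a control array it could not be fitted. With miR-1 against miR-null, GPX3 was 0.74 in KHOS and 0.82 in U-2OS after quantile normalization, and 0.61 and 0.45 as the mean of its probe sets. Of the settings run, 0 reversed a called member. The cause of these shifts was not tested.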
